A study of Mus musculus with 12 samples.

Results

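The altitude by IOX2 interaction asks, gene by gene, whether IOX2 treatment was accompanied by a different expression change in 4T1 tumours of mice held at simulated altitude than in tumours of mice held at ambient altitude. It was taken as the log2 ratio of IOX2 to vehicle at simulated altitude minus the same log2 ratio at ambient altitude, in a fit of 4 group means over all 12 tumour libraries. Genes entered when they had at least 10 counts in 3 or more libraries, which 15333 of the 35434 genes in the count table did. A positive value says that the ratio of IOX2 to vehicle was larger at simulated altitude, and a negative value that it was smaller. The same number is also the altitude difference under IOX2 minus the altitude difference under vehicle.

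4T1 is a mouse mammary carcinoma line of BALB/c origin that is used as a model of triple-negative breast cancer. Every mouse was a female BALB/c animal of 6 to 8 weeks that was acclimatized for 3 days and then received 4T1 cells under the skin of the back. Group MC (ambient altitude of about 1500 m) and group HC (a hypobaric chamber set to 3500 m) received vehicle. Group MI (ambient altitude) and group HI (chamber at 3500 m) received IOX2 at 10 mg/kg by intraperitoneal injection. Injections in all 4 groups were given daily for 10 days from day 9 after inoculation, and tumours were taken on study day 22. Each group had 3 libraries, each from 1 tumour of a different mouse. Chamber housing and low pressure came together, so within HC and HI they cannot be told apart, and each library measured a whole tumour piece with its host cells.

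Cells sense oxygen through prolyl hydroxylases, PHD2 (gene Egln1) foremost, which mark the alpha subunits of hypoxia-inducible factors (HIF) for destruction by the von Hippel-Lindau ubiquitin ligase. Low oxygen slows these enzymes, and IOX2 is an inhibitor of them. Whether either treatment slowed them in these tumours was not measured. The interaction describes only how the expression changes of the treatments combine. Stabilized HIF switches on genes of glycolysis, blood vessel growth and red cell production. Ferroptosis is an iron-dependent form of cell death through lipid peroxidation, held in check by the cystine importer Slc7a11 and the peroxidase Gpx4.

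Library totals lay between 31661685 and 40019343 counts, with a median of 39468317, and the epithelial genes Epcam, Krt8 and Krt18 were at 342 to 605, 888 to 1287 and 986 to 1408 CPM (counts scaled to a fixed library size with TMM factors). Libraries that stood apart touch several results below. Tumour MI1 had 559 CPM of the plasma cell gene Jchain against at most 17.4 elsewhere. Tumour MI3 had the largest share of mitochondrial counts, 2.96% against a median of 1.89%, and HC1 had the smallest total.

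No gene passed the interaction test. At an adjusted p under 0.05 (edgeR quasi-likelihood test, Benjamini-Hochberg adjustment over the 15333 genes) 0 genes were called, 0% of those tested, and the smallest adjusted p was 0.599. An unadjusted p under 0.05 was reached by 1256 genes (8.19%), 618 with a positive value (4.03%) and 638 with a negative value (4.16%). Whatever the p, 47.6% of the genes tested had a positive interaction and 52.4% a negative one. The sign counts of the gene lists are to be read beside these shares. Their counts at an unadjusted p under 0.05 are to be read beside the 8.19%. DESeq2's Wald test, run as an alternative, called 29 genes, and the edgeR fit without MI2 called 2 (Angpt1 and Cd38). In the same fit IOX2 at simulated altitude gave 0 calls (0%; 738 genes at an unadjusted p under 0.05, and 19 calls by DESeq2). IOX2 at ambient altitude gave 4 (0.0261%; 1440 genes at an unadjusted p under 0.05). Those 4 were the globin genes Hba-a1, Hba-a2, Hbb-bs and Hbb-bt, and all 4 calls were lost with limma-voom and without MC1, MC2, MC3, MI1 or HI2.

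The interaction is harder to measure than either of its parts. Among the 11394 genes at 5 CPM or more in their highest group, its median standard error was 0.180 on the log2 scale, against 0.128 for IOX2 at either altitude. The middle of the distribution was narrow and its lower tail was the longer one. The 25th and 75th percentiles over all genes tested were -0.29 and 0.17, the 5th and 95th were -1.13 and 0.64, and the median was -0.02. Values below -1 were found for 933 genes and above 1 for 354. Without MI1 these counts were 649 and 376, without HC1 747 and 427. They also depended on the treatment of low counts. With only the 13407 genes at 1 CPM or more in 3 libraries they were 510 and 115. On log2 FPKM they were 358 and 143 with a pseudocount of 0.1, and 70 and 22 with a pseudocount of 1.

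The IOX2 changes at the 2 altitudes were only weakly correlated. They share no library, and across the 11394 genes their Pearson correlation was -0.15 and Spearman's rho -0.09, with 48.3% of genes having the same sign. Genes are not independent replicates, so these values are a description, and without MI1 the Pearson value was 0.03. Of the 1256 genes at an unadjusted p under 0.05, 603 were higher with IOX2 at simulated altitude and lower at ambient altitude, 619 were the reverse, 21 were higher at both and 13 lower at both. Opposite signs thus made up 97.3% of them against 53.0% of all genes tested, and choosing genes for a large difference favours opposite signs.

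**Figure D1:**
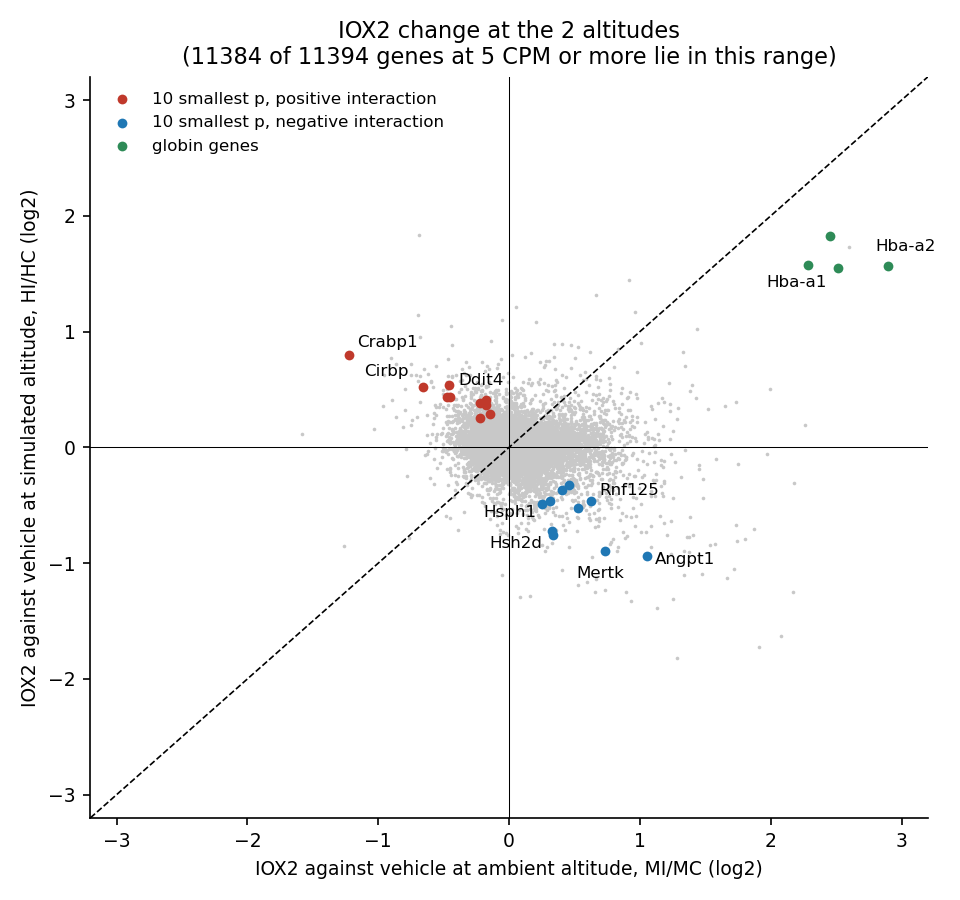
Each grey point is 1 of the 11384 genes within the axis limits, of 11394 at 5 CPM or more, with the log2 ratio of IOX2 to vehicle at ambient altitude on the x axis and at simulated altitude on the y axis. The dashed line marks an interaction of 0; the 10 genes with the smallest p in each direction (red, blue) lie at the upper left and lower right, and the 4 globin genes (green) lie at the upper right, below the line.

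Since fewer than 3 genes passed, the 10 genes with the smallest interaction p in each direction and at least 5 CPM are described here. None passed adjustment (adjusted p = 0.599 for each, edgeR). All 20 kept their sign in each of the 12 fits without 1 tumour and in each of the 12 other alternatives, and DESeq2's Wald test called all 20. Their sizes ran from 0.44 to 2.02 in absolute log2 units. In 19 of them the HI and HC tumours did not overlap (11.3% of all genes tested), in 15 the MI and MC tumours did not (11.1%), and in 14 neither pair did (1.41%). The choice by smallest p in these same tumours favours stable signs, calls by DESeq2 and groups that do not overlap. These counts therefore only describe the 20 genes and are no separate support for them.

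Ddit4 had the smallest p of all. It encodes REDD1, an inhibitor of the growth kinase complex mTORC1 that hypoxia and other stresses switch on. It stood at 186, 218 and 217 CPM in the MC tumours, 142, 167 and 145 in the MI tumours, 162, 176 and 182 in HC and 257, 240.2 and 205 in HI. IOX2 tumours were below vehicle tumours at ambient altitude and above them at simulated altitude, without overlap in either pair, so that MC and HI were high and MI and HC low. The log2 ratio of IOX2 to vehicle was -0.45 at ambient altitude and 0.43 at simulated altitude, and the interaction was 0.89 (SE 0.15, unadjusted p = 8.5e-05), ranging from 0.81 to 0.97 over the fits without 1 tumour.

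HIF binds DNA at short cores such as ACGTG, the only form looked for here. In the 250 bases before the start of each gene (RefSeq promoters, build GRCm38.p6, matched by symbol for 11901 of the 15333 genes tested) this core was found on either strand in 24.1% of genes. It was found in 14 of 22 promoters of HIF targets outside glycolysis (63.6%) and in 8 of 18 of glycolysis genes (44.4%). The Ddit4 and Hk2 windows are shown because, in these lists, they belong to the member with the smallest interaction p whose window held the core. Genes and motifs were chosen after the expression values had been seen, a match is only a match of letters, and capitals mark it.
Ddit4, chr10:59951923-59951987, minus strand, 217 to 153 bases before the start: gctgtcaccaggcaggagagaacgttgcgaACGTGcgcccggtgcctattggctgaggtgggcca
Hk2, chr6:82774646-82774704, minus strand, 250 to 192 bases before the start, the core on the opposite strand, the first of 2 matches: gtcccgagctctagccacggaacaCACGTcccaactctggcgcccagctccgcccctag

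The other 9 positive genes had the same signs, lower with IOX2 at ambient altitude and higher at simulated altitude. Zfp36l2, an RNA-binding protein that speeds the decay of AU-rich messenger RNAs, was at 536, 528 and 527 CPM with vehicle and 449, 492 and 470.4 with IOX2 at ambient altitude, against 491, 505 and 581 with vehicle and 692, 674 and 671 with IOX2 at simulated altitude. The 3 HI tumours were the highest of the 12, the MI tumours were below all MC tumours, and the interaction was 0.54 (SE 0.11, unadjusted p = 4.1e-04). Cirbp, the cold-inducible RNA-binding protein, was at 67.3, 61.1 and 89.04 CPM in the MC tumours, 41.2, 55.3 and 40.9 in the MI tumours, 49.8, 45.2 and 57.2 in HC and 62.8, 84.9 and 71.03 in HI. Neither pair overlapped for Cirbp, and its interaction of 1.19 (SE 0.24, unadjusted p = 4.2e-04) was the second largest of the 10. Crabp1, a retinoic acid binding protein, had the largest value, 2.02 (SE 0.46, unadjusted p = 0.001). Its levels were 12.97, 20.7 and 31.8 CPM in HC and 29.4, 33.6 and 50.8 in HI, beside 44.6, 31.8 and 46.8 in MC and 12.9, 15.97 and 23.97 in MI. MI lay below MC without overlap, while HI1 at 29.4 CPM lay below HC3 at 31.8.

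Zbtb17, the Myc partner Miz-1, had 31.4, 28.5 and 33.2 CPM in the MC tumours, 24.4, 29.5 and 25.7 in the MI tumours, 23.9, 27.7 and 25.8 in HC and 34.2, 33.7 and 32.8 in HI, and its interaction was 0.61 (SE 0.14, unadjusted p = 8.3e-04). The HI tumours were above all HC tumours, whereas MI2 was within the range of MC. Vopp1 was among the smallest in size, 0.44 (SE 0.10, unadjusted p = 7.0e-04), with little spread within groups: 57.5, 64.6 and 61.5 CPM with vehicle and 56.2, 54.1 and 55.3 with IOX2 at ambient altitude, against 48.2, 51.5 and 49.7 with vehicle and 60.6, 60.8 and 61.2 with IOX2 at simulated altitude. The remaining 4 were Haghl at 1.00, Dnajc27 at 0.59, Cuedc1 at 0.47 and Rsph3b, a radial spoke protein of cilia, at 0.91 on the log2 scale.

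Among negative genes Rnf125 had the smallest p. It encodes a ubiquitin ligase that restrains the RNA sensor RIG-I. Its levels were 9.29, 11.1 and 10.2 CPM in the MC tumours, 16.4, 13.6 and 17.04 in the MI tumours, 18.4, 15.7 and 13.3 in HC and 11.5, 12.5 and 10.4 in HI. IOX2 tumours were above vehicle at ambient altitude and below it at simulated altitude without overlap, and the interaction was -1.09 (SE 0.20, unadjusted p = 2.0e-04). Hsh2d, an adaptor protein of blood cells, had 9.21, 8.7 and 9.79 CPM in HC and 5.85, 5.31 and 5.6 in HI, beside 6.5, 5.73 and 6.39 in MC and 9.26, 7.09 and 7.04 in MI. HI was below HC and MI above MC without overlap, and the interaction was -1.05 (SE 0.20, unadjusted p = 2.7e-04). Phf11d, an interferon-inducible gene of the immune system, was at 55.3, 50.1 and 46.03 CPM with vehicle and 66.9, 57.8 and 55.2 with IOX2 at ambient altitude, against 61.5, 71.1 and 65.5 with vehicle and 44.8, 44.9 and 51.7 with IOX2 at simulated altitude, with an interaction of -0.73 (SE 0.15, unadjusted p = 3.5e-04). Its MI and MC tumours touched, since MI3 at 55.2 CPM was just below MC1 at 55.3.

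Mertk, a receptor through which macrophages take up dying cells, had one of the largest negative values, -1.63 (SE 0.33, unadjusted p = 3.6e-04). It stood at 8.91, 9.69 and 7.89 CPM in the MC tumours, 18.03, 11.4 and 14.7 in the MI tumours, 27.9, 14.8 and 20.9 in HC and 13.4, 11.2 and 9.61 in HI, without overlap in either pair. Mrc1, another macrophage gene, also had a negative interaction, -1.14 (SE 0.39, unadjusted p = 0.013), but of 20 macrophage and monocyte genes tested 10 were positive and 10 negative, with a median of -0.01 (0.09 without MC2 and -0.14 without HI3). Tfec, a transcription factor of the macrophage lineage, was at -1.05 (SE 0.24). Angpt1, the ligand that steadies vessels through the Tie2 receptor, had 4.23, 3.91 and 4.15 CPM in the MC tumours, 9.13, 4.2 and 12.2 in the MI tumours, 6.64, 5.76 and 4.65 in HC and 3.24, 3.18 and 2.46 in HI. MI1 and MI3 were high while MI2, at 4.20 CPM, was within the MC range, and the interaction was -1.99 (SE 0.44, unadjusted p = 8.2e-04).

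Hsph1, a chaperone of the HSP110 family, stood at 49.6, 52.2 and 41.5 CPM with vehicle and 57.6, 63.4 and 57.3 with IOX2 at ambient altitude, against 60.2, 63.97 and 53.7 with vehicle and 49.1, 39.9 and 40.2 with IOX2 at simulated altitude. Neither pair overlapped, and the interaction was -0.78 (SE 0.16, unadjusted p = 4.7e-04). Banp, Paqr8 and Ddhd1 completed the negative 10 at -0.78, -1.09 and -0.77.

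**Figure D2:**
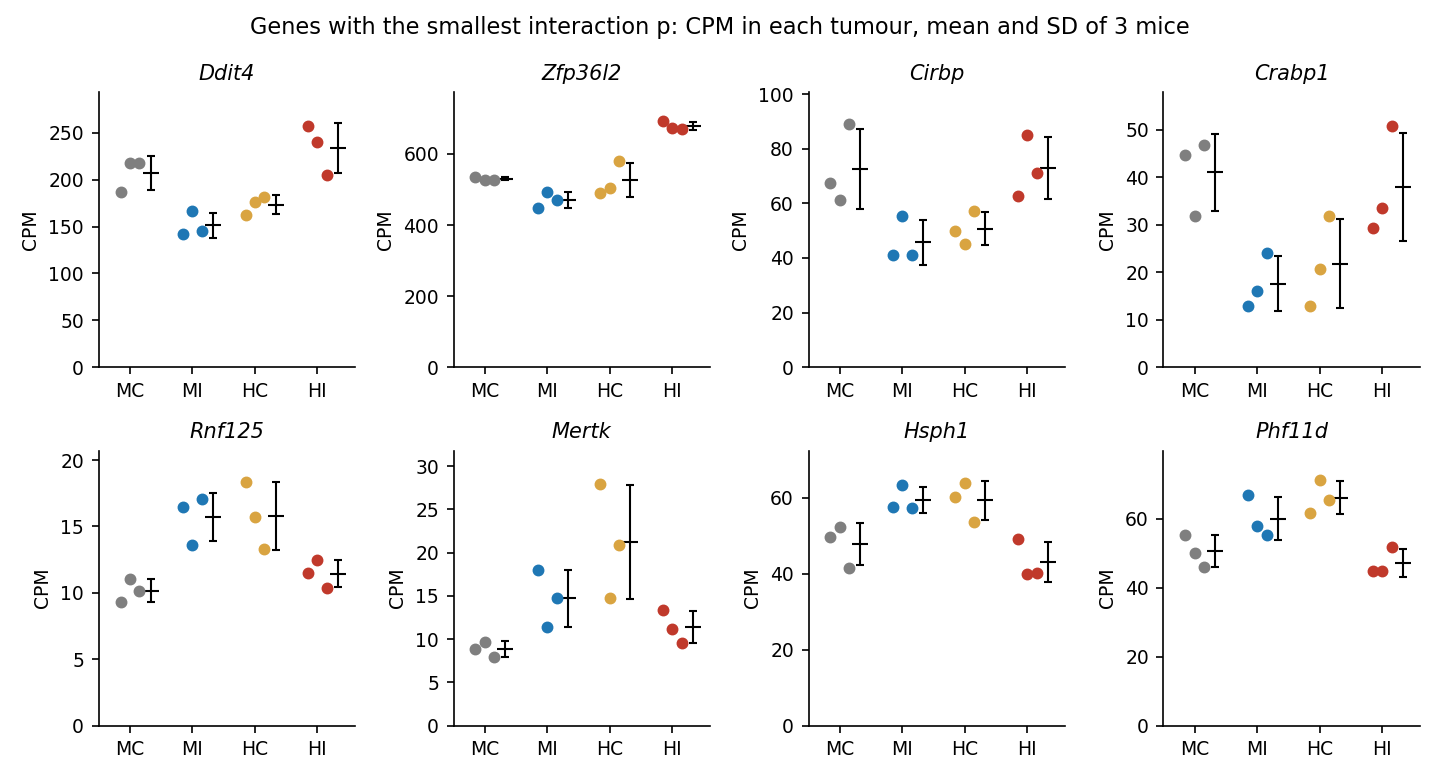
CPM of 8 of the genes with the smallest interaction p in each of the 12 tumours, with the mean and SD of the 3 mice beside each group. In the upper 4 panels the mean of MI lies below MC and the mean of HI above HC; in the lower 4 panels both differences have the opposite sign, with HC1 reaching 27.9 CPM for Mertk.

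The crossing shape could be counted over all genes. HI lay above HC and MI below MC, both without overlap, in 79 genes (0.515% of 15333), and the reverse held in 57 (0.372%). Both pairs were higher with IOX2 in 37 genes (0.241%) and both lower in 43 (0.28%). Crossing genes were thus 136 and like-sign genes 80. By smallest interaction p the leading crossing genes were Ddit4, Zfp36l2, Cirbp, Haghl and Vopp1 in one direction and Rnf125, Hsh2d, Mertk, Hsph1 and Banp in the other.

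Genes of oxygen sensing themselves had interactions of both signs, none of which passed. Egln1, the main target of IOX2, was at 148, 171 and 162 CPM in the MC tumours, 154, 186 and 142 in the MI tumours, 126, 182 and 176 in HC and 272, 191 and 180.2 in HI. HI1 was the highest tumour, and the interaction was 0.41 (95% interval -0.14 to 0.96), and 0.20 without HI1. Egln2 had an interaction of 0.09 (95% interval -0.22 to 0.40) and Egln3, itself a HIF target, 0.27 (95% interval -0.42 to 0.96), with 0.049 without HC1 and 0.52 without HC2. Hif1a was at 236, 313 and 263 CPM in HC and 306, 241 and 288 in HI, beside 321, 317 and 253 in MC and 435, 262 and 721 in MI. MI3 was far above the others, and the interaction was -0.63 (95% interval -1.49 to 0.23) with all tumours and -0.20 without MI3. Epas1, which encodes HIF-2 alpha and is abundant in vessel lining cells, was at -0.73 (SE 0.30, unadjusted p = 0.031, adjusted p = 0.599 by edgeR). Vhl, the substrate receptor of the ubiquitin ligase, was positive at 0.41 and its scaffold Cul2 negative at -0.37. Of 16 oxygen sensing genes tested, 9 were positive and 7 negative, and the median was 0.05 (0.01 without MI3 and 0.12 without MI2) against -0.02 for all genes tested. At an unadjusted p under 0.05 were 1 positive and 2 negative genes, 18.75% of the list against 8.19% of all genes tested. Without MC3 these counts were 0 and 0, and without MI2 1 and 4.

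HIF target genes outside glycolysis had mostly positive interactions, none of which passed. Of 30 tested 24 were positive, against 47.6% of all genes tested. A positive value at an unadjusted p under 0.05 was found for 4 (4.03% of all genes) and a negative one for 2 (4.16%), and the median was 0.25. Ddit4 was one of the 4. Angptl4, an inhibitor of lipoprotein lipase, was one of the 2 on the other side: 24.6, 21.7 and 19.5 CPM in the MC tumours, 44.8, 31.1 and 30.5 in the MI tumours, 55.2, 53.9 and 37.6 in HC and 57.1, 26.3 and 27.3 in HI. It had an interaction of -1.10 (SE 0.40, unadjusted p = 0.017), so values of both signs occurred among HIF targets. Without HC1 the median was 0.07 and 18 of 30 were positive, and the 4 became 2 without MI1 and 7 without MI2 or HC2. In the glycolysis list 17 of 19 genes were positive and the median was 0.37. Of the 19, 3 were at an unadjusted p under 0.05 (15.8%, against 8.19% of all genes tested). Aldoc, a glycolytic aldolase, stood at 73.8, 86.4 and 89.9 CPM with vehicle and 48.4, 81.2 and 55.6 with IOX2 at ambient altitude, against 34.9, 59.9 and 55.4 with vehicle and 72.7, 70.4 and 86.6 with IOX2 at simulated altitude, and its interaction was 1.05 (SE 0.30, unadjusted p = 0.0051). Pdk1, a kinase that inhibits pyruvate dehydrogenase, was at 0.74 (SE 0.28, unadjusted p = 0.021), and Hk2, the hexokinase of the first step, at 0.58 (SE 0.25, unadjusted p = 0.04).

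Library HC1 was low and HI1 high in this list. The mean centred log2 CPM over the 19 glycolysis genes was -0.13, 0.06 and -0.04 in the MC tumours, -0.13, 0.09 and -0.38 in the MI tumours, -0.45, 0.18 and 0.12 in HC and 0.48, 0.17 and 0.04 in HI. HC1 was the lowest of the 12, HI1 the highest, and MI3 the next lowest. The median interaction was 0.20 without HC1, and the 3 genes at an unadjusted p under 0.05 became 1 without MI1 or HI1.

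Among genes of ferroptosis the cystine importer was higher with IOX2 at simulated altitude, without passing. Slc7a11, which brings in cystine for glutathione, was at 48.6, 27.2 and 77.1 CPM in the MC tumours, 31.2, 51.2 and 75.9 in the MI tumours, 13.9, 21.2 and 26.1 in HC and 46.8, 46.8 and 48.4 in HI. At simulated altitude every IOX2 tumour was above every vehicle tumour, the HC tumours being the lowest group. HI and HC did not overlap, in either direction, in 11.3% of all genes tested. At ambient altitude the ranges of MI and MC overlapped. Its interaction was 1.16 (SE 0.52, unadjusted p = 0.047), adjusted p = 0.599 by edgeR, and ranged from 0.74 to 1.504 in the fits without 1 tumour. Gpx4, the peroxidase that removes lipid peroxides, had ranges that overlapped between all groups: 225, 272 and 297 CPM with vehicle and 216, 253 and 221 with IOX2 at ambient altitude, against 235, 261 and 260.5 with vehicle and 249.9, 235 and 227 with IOX2 at simulated altitude. Its interaction was 0.11 (95% interval -0.22 to 0.44).

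Acsl4, a synthetase that activates polyunsaturated fatty acids for membrane lipids, had an interaction of -0.22 (95% interval -0.99 to 0.55) and 0.21 without MI3. Tfrc, the transferrin receptor, was at -0.23 (95% interval -1.15 to 0.69) and 0.03 without HI2. Hmox1, which frees iron from haem, was at 0.44 (95% interval -0.59 to 1.46) and -0.09 without HI1. Ptgs2, often used as a marker of ferroptosis, was at -0.11 (95% interval -1.42 to 1.20), and its sign turned in 5 of the 12 fits without 1 tumour, from -0.72 to 0.28. For these 4 genes no interaction was detectable with 3 tumours a group, and each interval holds values of both signs.

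Ferroptosis suppressors were positive in 18 of 29 and 4 had an unadjusted p under 0.05, with a median of 0.15 (0.08 without HI1). Scd2, a fatty acid desaturase, had the smallest p: 829.7, 915 and 886 CPM in the MC tumours, 529.9, 714 and 582 in the MI tumours, 441.2, 552 and 511 in HC and 506, 757 and 689.5 in HI. IOX2 tumours were lower than vehicle tumours at ambient altitude without overlap, and its interaction was 0.90 (SE 0.22, unadjusted p = 0.0014). Fth1, the heavy chain of the iron store ferritin, was at 0.43 (SE 0.19, unadjusted p = 0.041), and HI2 and HI3 were within the range of HC. Prdx6, a peroxidase of phospholipids, was at 0.33 (SE 0.15, unadjusted p = 0.047). The 4 became 1 without MC3, MI1, HC1 or HC2, and 2 without MC2, MI3 or HI2. Ferroptosis drivers were negative in 19 of 29 with none at an unadjusted p under 0.05 (5 without MI2), and their median moved from -0.19 to -0.03 without MI3. Of 29 iron handling genes 11 were positive and 18 negative, with a median of -0.06, which ran from -0.21 without HI1 to 0.01 without HI3.

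NRF2 targets, which make glutathione and NADPH and detoxify aldehydes, were positive in 21 of 24, with a median of 0.19. Of the 24, 4 had an unadjusted p under 0.05 (16.7%, against 8.19% of all genes tested). Gsta4, a glutathione transferase, stood at 15.03, 12.1 and 19.3 CPM with vehicle and 6.56, 13.1 and 8.66 with IOX2 at ambient altitude, against 12.6, 11.8 and 17.5 with vehicle and 28.1, 22.8 and 13.7 with IOX2 at simulated altitude, and its interaction was 1.33 (SE 0.43, unadjusted p = 0.0093). Blvrb, biliverdin reductase B, was at 0.58 (SE 0.17, unadjusted p = 0.0062) and G6pdx, the entry enzyme of the pentose phosphate pathway, at 0.32 (SE 0.11, unadjusted p = 0.013). HI1 scored highest for the list, 0.38 in mean centred log2 CPM, and without it 15 of 24 were positive and the median was 0.10; without HI3 the 4 became 7.

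Genes of blood vessels had mostly negative interactions, with their lowest levels in HI. Of 25 endothelial genes, which mark the cells that line blood vessels, 23 were negative, and 10 of those had an unadjusted p under 0.05, which is 40% of the list against 4.16% of all genes tested with a negative value. None passed adjustment, and the median was -0.48. Pecam1, an adhesion molecule of endothelium, was at 98.5, 101 and 101 CPM in the MC tumours, 142, 102 and 112 in the MI tumours, 112, 103 and 103 in HC and 84.5, 85.1 and 78.9 in HI. The 3 HI tumours were the lowest of all 12, MI1 was the highest, and the interaction was -0.60 (SE 0.15, unadjusted p = 0.002). Tie1, a receptor kinase of endothelium, showed 37.6, 30.3 and 37.5 CPM in HC and 25.2, 24.4 and 22.7 in HI, beside 31.9, 32.5 and 35.4 in MC and 43.3, 32.3 and 34.4 in MI, with an interaction of -0.68 (SE 0.17, unadjusted p = 0.0019). Esam, a junction protein, was at -0.76 (SE 0.19, unadjusted p = 0.0019).

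The mean centred log2 CPM of the endothelial list was 0.09, 0.11 and 0.11 in the MC tumours, 0.38, 0.02 and 0.17 in the MI tumours, 0.12, -0.12 and 0.05 in HC and -0.33, -0.22 and -0.38 in HI. All HI tumours were below every other tumour, and the MI tumours overlapped MC. In bulk tissue fewer endothelial cells and less of these RNAs per cell cannot be told apart. Without MI1, the highest tumour, the median was -0.32, 23 of 25 were still negative and 8 had an unadjusted p under 0.05. Over all fits without 1 tumour that count lay between 7 and 13.

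Genes of cells around vessels and in the stroma were also mostly negative, with wider spread between tumours. Mural genes, of pericytes and smooth muscle, were negative in 13 of 16, with 4 at an unadjusted p under 0.05 and a median of -0.59 (-0.34 without MI1). The 4 ranged from 1 (without MC3, MI1, HC1 or HI2) to 8 (without MI2). Pdgfrb, the pericyte growth factor receptor, was at -0.41 (SE 0.17, unadjusted p = 0.032). Fibroblast genes were negative in 17 of 19 with a median of -0.45, and -0.18 without HC1. Of the 19, 2 had an unadjusted p under 0.05 (10.5%, against 8.19% of all genes tested). Fap, a protease of activated fibroblasts, stood at 8.66, 10.1 and 6.79 CPM in the MC tumours, 16.5, 8.06 and 12.3 in the MI tumours, 11.4, 9.96 and 6.68 in HC and 5.66, 7.67 and 5 in HI, and its interaction was -1.14 (SE 0.40, unadjusted p = 0.016). Collagen and matrix genes were negative in 21 of 24 with 5 at an unadjusted p under 0.05 and a median of -0.46, which became -0.24 without HC1; the 5 ranged from 2 (without MC3, MI1 or HI3) to 12 (without MI2). Col4a1, of vessel basement membrane, was lower in all HI tumours than in all others, -0.35 (SE 0.12, unadjusted p = 0.016). Epithelial tumour cell genes were positive in 14 of 18 (10 without HI1), with a median of 0.15 that was 0.05 without MI1.

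**Figure D3:**
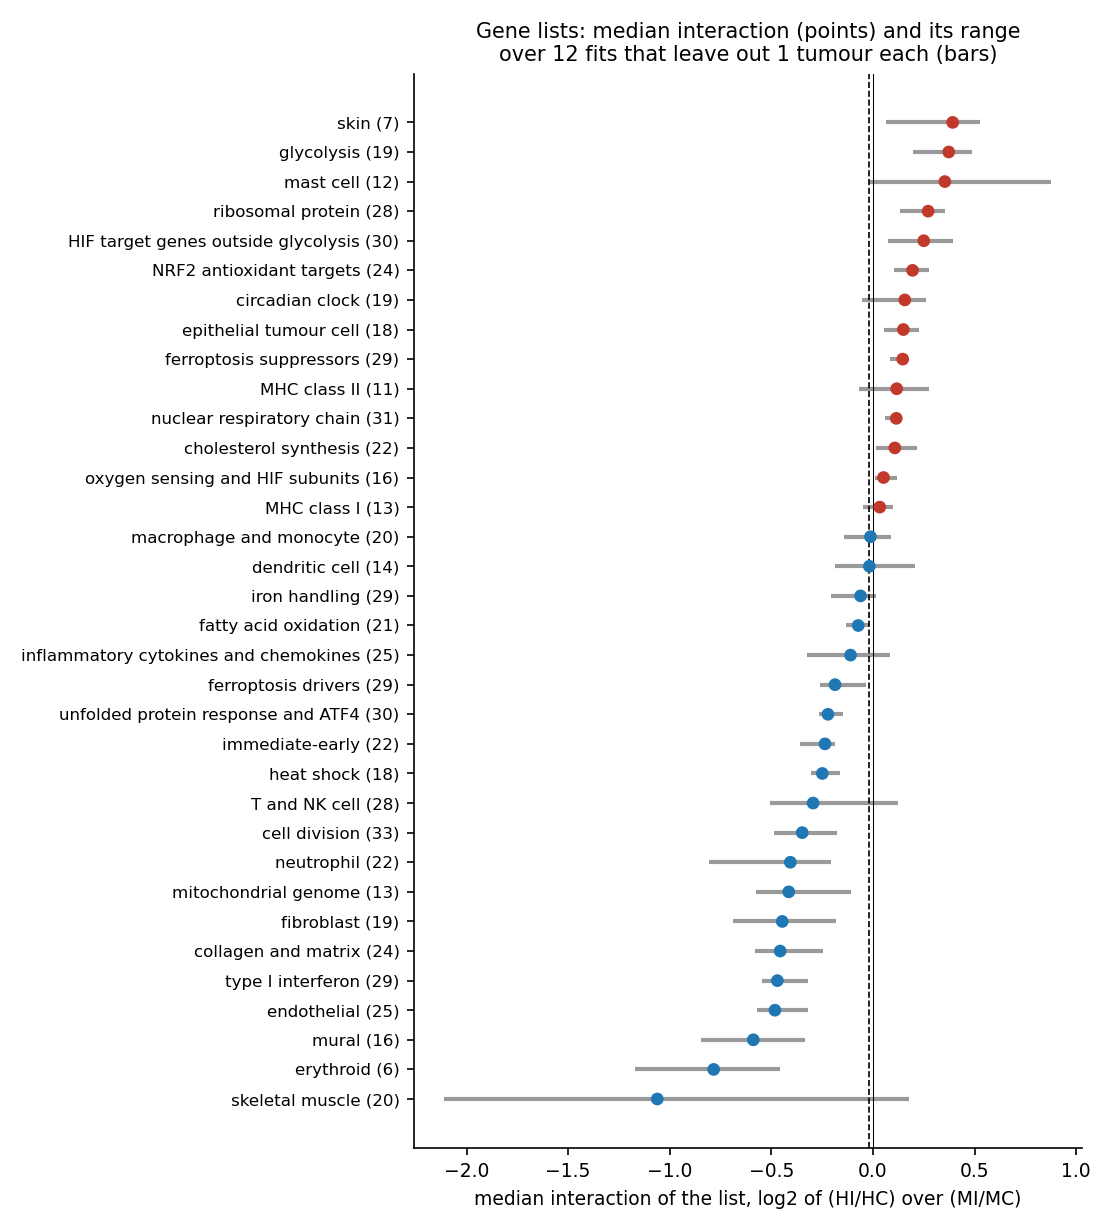
Median interaction (log2) of 34 gene lists, with the number of genes tested in brackets; grey bars span the 12 fits that leave out 1 tumour each, and the dashed line is the median of all genes tested, -0.02. Glycolysis (0.37) and ribosomal protein genes (0.27) stay positive and endothelial (-0.48) and type I interferon genes (-0.47) negative over their whole bars, whereas the skeletal muscle bar crosses 0.

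Type I interferon genes, which cells switch on through STAT and IRF factors when they sense viral or self nucleic acid, had the highest share at an unadjusted p under 0.05 among the lists of more than 10 genes. Of 29 tested, 28 were negative and 17 had an unadjusted p under 0.05 (58.6%, against 4.16% of all genes tested with a negative value), and none passed adjustment. The median was -0.47. Isg15, a ubiquitin-like protein, was at 71.7, 68.3 and 72.1 CPM in the MC tumours, 93.2, 79.5 and 62.5 in the MI tumours, 87.2, 87.9 and 87.7 in HC and 55.5, 69.7 and 63.5 in HI. The HC tumours were close together and above all HI tumours, while MI and MC overlapped. Its interaction was -0.63 (SE 0.18, unadjusted p = 0.0048). Ifi44 stood at 208, 199 and 183 CPM with vehicle and 286, 211 and 349 with IOX2 at ambient altitude, against 226, 212 and 234 with vehicle and 177, 155 and 201 with IOX2 at simulated altitude, with an interaction of -0.86 (SE 0.22, unadjusted p = 0.0024). All 3 MI tumours were above all MC tumours, and HI was below HC without overlap. Cmpk2, a mitochondrial nucleotide kinase, was at -0.85 (SE 0.25, unadjusted p = 0.0052).

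The interferon list scored 0.05, -0.14 and -0.18 in the MC tumours, 0.38, 0.03 and 0.08 in the MI tumours, -0.02, 0.13 and 0.10 in HC and -0.15, -0.22 and -0.05 in HI in mean centred log2 CPM. HI was low, MI1 was the highest tumour, and MC1 lay apart from MC2 and MC3. The median was -0.32 without MI1, with 29 of 29 negative and 11 at an unadjusted p under 0.05. Over all fits without 1 tumour this count ran from 10 (without HI2; 11 without MC3) to 20 (without MI3). The interferon response motif GAAANNGAAA, read on either strand of the same windows and with overlapping matches allowed, was in 11 of 22 promoters of the list (50%) and in 3.38% of all genes tested. The Isg15 window (build GRCm38.p6, RefSeq) is shown because, of the members whose window held the motif, Isg15 had the smallest interaction p; capitals mark 3 overlapping matches.
Isg15, chr4:156200845-156200926, minus strand, 108 to 27 bases before the start: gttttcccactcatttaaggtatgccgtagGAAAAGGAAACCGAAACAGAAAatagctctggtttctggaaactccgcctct

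Immune cell lists were less even. T and NK cell genes were negative in 24 of 28 with a median of -0.29, which turned to 0.12 without MI1, when 18 of 28 were positive. Only 2 had an unadjusted p under 0.05 (7.14%, against 8.19% of all genes tested). Ctla4, an inhibitory receptor of T cells, was at 0.806, 0.984 and 0.738 CPM in the MC tumours, 2.59, 2.43 and 1.97 in the MI tumours, 1.5, 1.39 and 2.23 in HC and 2.61, 1.36 and 1.82 in HI, with an interaction of -1.29 (SE 0.43, unadjusted p = 0.011). MI was above MC without overlap, and HI and HC overlapped. Neutrophil genes were negative in 16 of 22, with a median of -0.41 (-0.21 without MI1 and -0.80 without HC1) and 5 at an unadjusted p under 0.05 (0 without MI1 and 9 without HC1). Inflammatory cytokine genes were negative in 16 of 25, with none at an unadjusted p under 0.05, and their median of -0.11 was 0.08 without HC2 and -0.33 without HC1. The MHC class I median was 0.03, and -0.05 without MI3, when 12 of 13 were negative. The class II median was 0.12, and -0.07 without HI3. Mast cell genes were positive in 8 of 12 and negative in 4, with a median of 0.35. An unadjusted p under 0.05 was reached by 4, all positive (33.3%, against 4.03% of all genes tested with a positive value). They were led by the mast cell protease Mcpt4 at 1.47 (SE 0.50, unadjusted p = 0.012). Without HC1 the mast cell median was -0.02, with 2 positive and 2 negative at that p. Without HI3 6 of the 12 were positive, and 1 was at that p.

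Heat shock genes, the chaperones induced by HSF1, were negative in 15 of 18. Of these, 3 had an unadjusted p under 0.05 (16.7% of the list, against 8.19% of all genes tested). The list median was -0.25, with a range of -0.30 to -0.16 in the fits without 1 tumour. The 3 became 5 without MI1 or MI2, and 2 without MC3, HC1 or HC2. Hsp90aa1 stood at 657, 641 and 577 CPM in the MC tumours, 672, 681 and 871 in the MI tumours, 693, 738 and 774 in HC and 690.4, 663 and 613 in HI. HI was below HC without overlap, and MI was above MC, farthest in MI3. Its interaction was -0.41 (SE 0.15, unadjusted p = 0.02). Serpinh1, the chaperone of collagen, was at -0.36 (SE 0.15, unadjusted p = 0.034). The heat shock motif GAANNTTC, which reads the same on both strands, was in 6 of 14 promoters of the list (42.9%) against 6.26% of all. Genes of the unfolded protein response and ATF4 were negative in 22 of 30, 4 at an unadjusted p under 0.05 (2 without MC1, MI1, HC2 or HI2 and 9 without MI3), with a median of -0.22 that was -0.15 without MC3, MI1 or HC2. Herpud1, which serves the removal of misfolded proteins from the endoplasmic reticulum, was at -0.46 (SE 0.17, unadjusted p = 0.019) and Hsp90b1, a chaperone there, at -0.38 (SE 0.16, unadjusted p = 0.033).

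Ribosomal protein genes showed the opposite sign as one group. All 28 tested were positive, against 47.6% of all genes tested, and the median was 0.27. Yet only 2 had an unadjusted p under 0.05 (7.14%, against 8.19% of all genes tested). The 2 became 9 without MC1 and 10 without MI2, and 0 without MC3, MI1, MI3, HC2, HI1 or HI2. Rps23, of the small ribosomal subunit, was at 639, 610.0 and 621 CPM in HC and 705, 674 and 611 in HI, beside 626, 662 and 794 in MC and 485, 649.6 and 526 in MI, with an interaction of 0.42 (SE 0.17, unadjusted p = 0.031). HI and HC overlapped, and so did MI and MC. The IOX2 ratio had a median of -0.29 at ambient altitude and -0.01 at simulated altitude. The list score was -0.06, 0.02 and 0.34 in the MC tumours, -0.31, -0.02 and -0.21 in the MI tumours, -0.02, 0.03 and 0.14 in HC and 0.11, 0.06 and -0.08 in HI. MC3 was the highest tumour and MI1 the lowest, and without MC3 the median was 0.13.

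Cell division genes were negative in 31 of 33, with a median of -0.35 (-0.18 without MC3, which scored lowest at -0.46). Of the 33, 4 had an unadjusted p under 0.05 (12.1%, against 8.19% of all genes tested). Aurka, a kinase of the mitotic spindle, was at -0.48 (SE 0.17, unadjusted p = 0.018) and Cdc20, an activator of the anaphase complex, at -0.5007 (SE 0.19, unadjusted p = 0.023). Without HC2 none of the 33 was negative at an unadjusted p under 0.05, and without HC3 11 were. Immediate-early genes, which growth signals switch on within minutes, were negative in 17 of 22, 5 at an unadjusted p under 0.05, with a median of -0.24 (-0.36 without HI1). Egr1 stood at 38.98, 36.2 and 29.7 CPM in the MC tumours, 54.1, 39.1 and 48.3 in the MI tumours, 75.4, 65.9 and 59.8 in HC and 56.9, 44.2 and 34.5 in HI, and its interaction was -1.0005 (SE 0.26, unadjusted p = 0.0023). The HC tumours were the highest group, and HI was below HC without overlap. Fos was at -0.67 (SE 0.18, unadjusted p = 0.0031) and Klf2, a shear-stress factor of endothelium, at -0.92 (SE 0.29, unadjusted p = 0.0091). Circadian clock genes had a median of 0.16, and -0.05 without HI1.

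**Figure D4:**
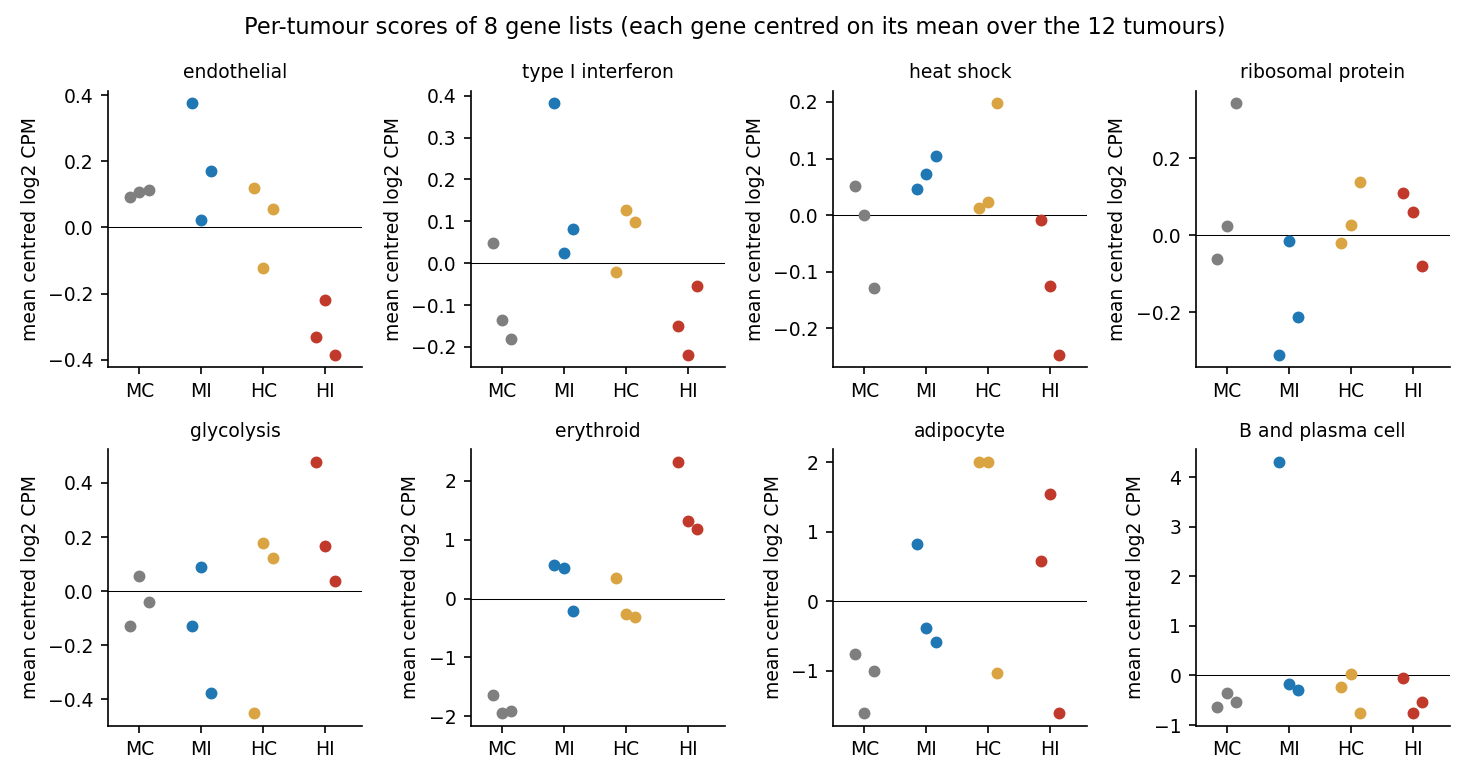
Mean centred log2 CPM of 8 gene lists in each of the 12 tumours, with the y axis scaled for each panel. The 3 HI tumours are lowest for endothelial genes (-0.22 to -0.38), HC1 is lowest for glycolysis (-0.45), and MI1 alone is high for B and plasma cell genes (4.31).

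Globin genes were higher with IOX2 at both altitudes, without overlap in either pair. Hba-a1, the alpha chain of haemoglobin, was at 4.96, 5.15 and 5.14 CPM in the MC tumours, 33.3, 29.95 and 23.7 in the MI tumours, 28.6, 15.6 and 16.8 in HC and 81.3, 53.1 and 43.5 in HI. The log2 ratio was 2.51 at ambient altitude (adjusted p = 0.0194, edgeR) and 1.55 at simulated altitude (adjusted p = 0.577, edgeR), and the interaction was -0.97 (SE 0.37, unadjusted p = 0.022). Hba-a2, Hbb-bs and Hbb-bt rose at ambient altitude by 2.89, 2.29 and 2.46 log2 units, each with an adjusted p of 0.027 by edgeR. At simulated altitude their ratios were 1.57, 1.58 and 1.83, which did not pass by edgeR. For IOX2 at simulated altitude DESeq2's Wald test called all 4 globins (adjusted p of 3.8e-05 to 0.0068), and edgeR with the replicate number as a block called Hba-a1, Hbb-bs and Hbb-bt (adjusted p = 0.037 for each). The interactions of Hba-a2, Hbb-bs and Hbb-bt were -1.33, -0.71 and -0.63, with adjusted p of 0.599, 0.622 and 0.654. Reads of such closely related genes may have been split between them by the counting.

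The sign of the globin interaction depended on the scale. In log2 terms IOX2 tumours differed less from vehicle at simulated altitude. In plain CPM they differed more, and HC already stood above MC. For Hba-a1 the mean ± SD of 3 mice was 5.08 ± 0.106 CPM in MC and 29.0 ± 4.89 in MI at ambient altitude, against 20.3 ± 7.18 in HC and 59.3 ± 19.7 in HI. The difference of differences in CPM was 15.1 for Hba-a1, 2.09 for Hba-a2, 33.2 for Hbb-bs and 5.28 for Hbb-bt. Of the 1256 genes at an unadjusted p under 0.05, 2 had opposite signs on the log2 and CPM scales, and these were Hba-a1 and Hba-a2.

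**Figure D5:**
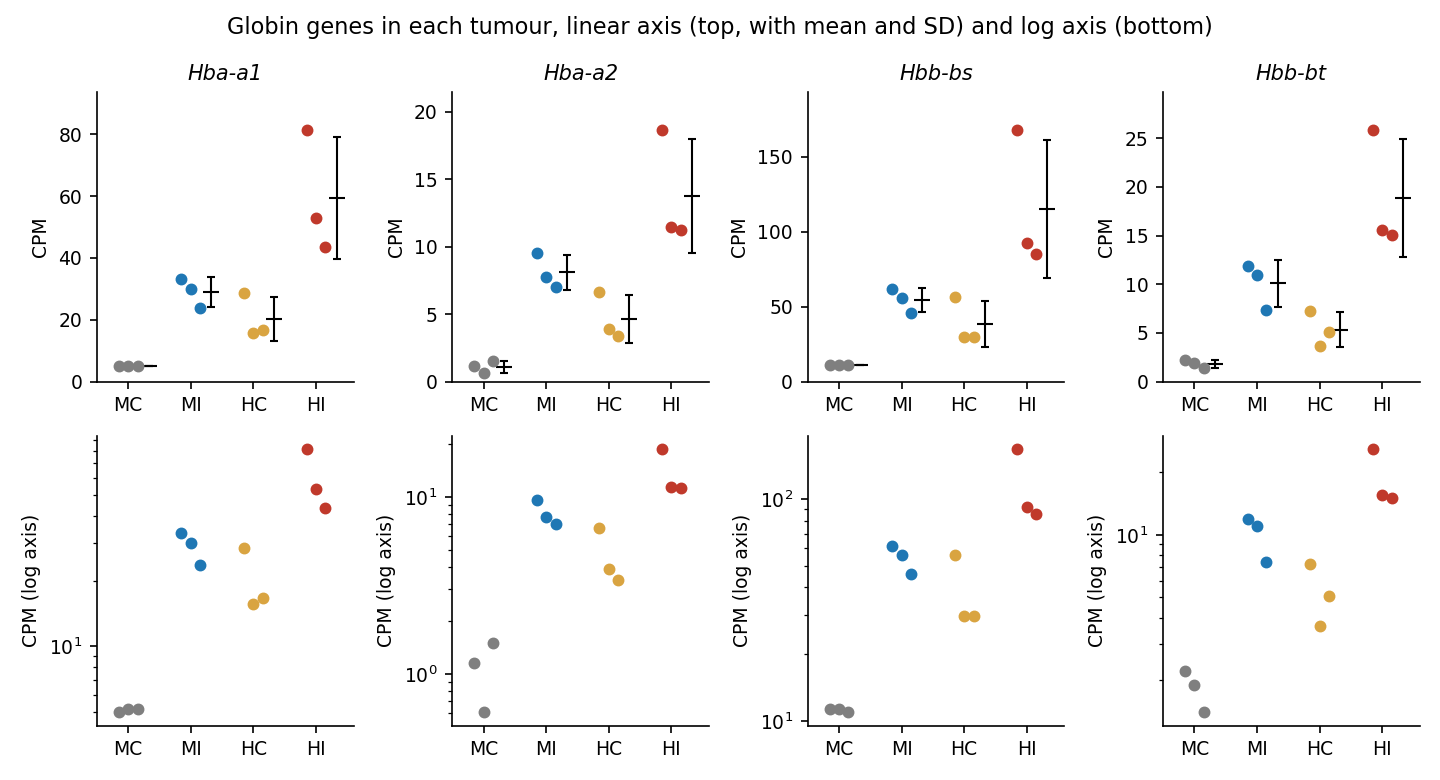
CPM of 4 globin genes in each tumour on a linear axis (top, with the mean and SD of 3 mice) and on a log axis (bottom). MC is lowest and HI highest; the step from HC to HI is the larger one on the linear axis and the step from MC to MI on the log axis.

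Averaged over altitude, IOX2 gave 6 calls (0.0391%; edgeR). Among them were the 4 globins and Alas2, the first enzyme of haem synthesis in red cell precursors, all higher with IOX2. Of 6 erythroid genes described here 5 had a negative interaction, with a median of -0.78 that ranged from -1.17 to -0.46 in the fits without 1 tumour. Genes lower with IOX2 at both altitudes without overlap were led by Rpl35a, Sirt3, Chchd5 and Rras, none of which passed. Sirt3, the mitochondrial deacetylase, was at 7.28, 7.02 and 7.96 CPM with vehicle and 5.57, 5.8 and 5.53 with IOX2 at ambient altitude, against 8.17, 7.23 and 6.86 with vehicle and 5.56, 6.19 and 6.07 with IOX2 at simulated altitude, log2 ratios of -0.40 at ambient altitude and -0.32 at simulated altitude, with an interaction of 0.08 (95% interval -0.32 to 0.48).

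Some of the most negative medians belonged to lists that were high in 1 or a few tumours. B and plasma cell genes had a median of -4.62, and -0.33 without MI1, where Mzb1, of antibody-secreting cells, reached 43.7 CPM against at most 0.583 elsewhere. Skeletal muscle genes had a median of -1.06 with 20 of 20 negative, none at an unadjusted p under 0.05. That median was 0.18 without MI1 and 0.12 without HC1, when 15 and 13 of the 20 were positive. Adipocyte genes had a median of -2.40 with 17 of 17 negative and 1 at an unadjusted p under 0.05 (8 without HI2 and 13 without HC3). Pck1, which adipocytes express for glycerol synthesis, showed how uneven that was: 2.06, 0.732 and 1.53 CPM in the MC tumours, 13.99, 3.18 and 2.28 in the MI tumours, 25.05, 49.3 and 1.2 in HC and 11.4, 19.6 and 0.796 in HI. HC1 and HC2 were high and HC3 was low, and HI1 and HI2 were above HI3. The adipocyte median stayed between -3.19 and -1.65 in the fits without 1 tumour. Mitochondrially encoded genes were negative in 12 of 13 with a median of -0.41, which was -0.11 without MI3.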

How the data were processed

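RNA of 12 subcutaneous 4T1 tumours was read as pairs of 150 bases on an Illumina NovaSeq instrument, per the labels' protocols. The authors deposited raw counts per gene and FPKM values. The submitters' processing notes name build GRCm39 and the tools HISAT2 2.1.0, HTSeq 0.11.2, fastp 0.20.1, R 3.5.1 and DESeq2 1.22.2. No source used here gives the annotation or the handling of strand, so antisense partners cannot be separated.

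From the counts, genes with at least 10 counts in 3 libraries were fitted with edgeR 4.0.16 (R 4.3.3, TMM factors, 4 group means, quasi-likelihood F test, Benjamini-Hochberg adjustment over all genes tested, threshold 0.05). Standard errors are the log2 value over the square root of F. List scores are means of log2 CPM (prior count 2) centred per gene. The members, the 36 lists and the promoter motifs were chosen with earlier results of these data known; list symbols were matched to the count table afterwards, and 751 of 757 were present. One gene is not reported here. The text names 11 oxygen and ferroptosis genes always, the 10 smallest p in each direction at 5 CPM or more, the leading crossing and like-sign genes, and up to 3 members a list by smallest p (no predicted genes, pseudogenes, or immunoglobulin and T cell receptor genes). Other members are named after their values were seen. Alternatives changed the filter, scaling and tool (DESeq2 1.42.0, limma 3.58.1, log2 FPKM with a pseudocount of 0.1 or 1), added the replicate number, or left out 1 tumour. The code was tested on simulated data. P-values measure the spread between these tumours, and their number limits the precision.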

Additional observations from a re-analysis of the deposited data

How the results depend on the processing

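The interaction gave 0 calls by edgeR and in every alternative except 2: 29 with DESeq2's Wald test (14 positive, 15 negative; one of them, Krt6a, has a fitted log2 value of 20.35 with all MI tumours at 0), and a range of 0 to 2 in the fits without 1 tumour. For IOX2 at simulated altitude the 0 calls became 19 with DESeq2 and 3, all globins, with the replicate block. For IOX2 at ambient altitude the 4 calls became 20 with DESeq2, 0 with limma-voom and 0 to 6 without 1 tumour. For IOX2 averaged over altitude the 6 became 11 with DESeq2. Genes at an unadjusted p under 0.05 numbered 272 to 1137 (positive) and 367 to 1700 (negative) without 1 tumour, and the negative count was 961 with no filter and 970 with limma-voom and sample quality weights. The total was 2837 without MI2, 673 without MC3, 730 without MI1 and 834 without HC1, against 1256. The correlation of the IOX2 changes was -0.30 with sample quality weights and -0.29 to 0.032 without 1 tumour. The cause of these shifts was not tested.

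Signs turned, without 1 tumour, for Egln2 (-0.020 to 0.17), Acsl4 (-0.46 to 0.21), Tfrc (-0.65 to 0.025), Hmox1 (-0.088 to 0.73), Ptgs2 (-0.72 to 0.28) and Itgae (-0.15 to 0.93). The labels say only that each number is a separate mouse. Deviations of same-numbered tumours correlated above 0.1 in 12 of 18 pairs (-0.36 to 0.40): in all 3 pairs of MC with HC (0.28 to 0.40) and of MI with HI (0.22 to 0.33), but in 1 of 3 of MC with MI and 1 of 3 of HC with HI. The numbers were therefore not taken to pair vehicle with IOX2 tumours; 6 of 12 tumours correlated best with their own number. With the replicate block the interaction still gave 0 calls.

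Limits: with 3 tumours a group, small interactions were not detectable at a median standard error of 0.180 among genes at 5 CPM or more. Large ones did not pass either, such as Crabp1 at 2.02 (adjusted p = 0.599, edgeR), so the lack of calls does not exclude them. List counts describe genes that are not independent. The counts of IOX2 averaged over altitude and at unadjusted p were added after seeing the data.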

Other observations

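Genes of cholesterol synthesis, fatty acid oxidation and the nuclear-encoded respiratory chain had list medians from -0.07 to 0.11, with none called by edgeR. Cholesterol synthesis genes were positive in 18 of 22, with a median of 0.11 (0.02 without MC2, when 12 were positive, and 0.22 without MC3, when 21 were). Of the 22, 2 had an unadjusted p under 0.05 (9.09%, against 8.19% of all genes tested). That count was 0 without MI1, MI3 or HI3. Dhcr7, the last reductase of the pathway, stood at 42.3, 40.4 and 40.1 CPM in the MC tumours, 29.7, 34.7 and 30.4 in the MI tumours, 43.2, 33.9 and 41.3 in HC and 37.8, 38.1 and 45.2 in HI. MI was below MC without overlap, HI and HC overlapped, and the interaction was 0.41 (SE 0.15, unadjusted p = 0.023). Fatty acid oxidation genes were negative in 14 of 21, with a median of -0.07 (-0.02 without HI3 and -0.13 without MC3) and 4 at an unadjusted p under 0.05 (2 without MC1, MC2, HC1, HI2 or HI3). Acaa2, the thiolase of the mitochondrial cycle, stood at 49.8, 54.8 and 54.1 CPM with vehicle and 58.8, 53.01 and 54.5 with IOX2 at ambient altitude, against 80.9, 82.2 and 81.3 with vehicle and 74.5, 65.3 and 51.5 with IOX2 at simulated altitude. HI was below HC without overlap, MI and MC overlapped, and the interaction was -0.42 (SE 0.16, unadjusted p = 0.023). Respiratory chain genes of the nuclear genome were positive in 23 of 31, with a median of 0.11 (0.06 without MC3 or MI3) and none at an unadjusted p under 0.05. Dendritic cell genes were evenly split, 7 positive and 7 negative of 14 (10 positive without MI1 and 4 without HI3), and skin genes were positive in 5 of 7 with a median of 0.39, and 0.06 without HI1.

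DESeq2's Wald test called 9 genes beside the 20 with the smallest p at 5 CPM or more. The edgeR interactions of these genes, none of which passed, were 1.38 for Acox2, a peroxisomal oxidase of bile acid precursors, 0.63 for Dync2h1, a motor of cilia, 1.06 for Gpr183, an oxysterol receptor of immune cells, -1.13 for Ifi207, -2.28 for Klra5, -1.71 for Fam169b, -1.88 for Naalad2 and -1.33 for Tmem252. The ninth was the keratin gene Krt6a, at a mean of 0 to 1.91 CPM in the 4 groups.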
